A study of Schizosaccharomyces pombe with 2 samples.

Results

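The ribosomal DNA (rDNA) of fission yeast lies in tandem repeats at both ends of chromosome III, and its copies relative to wild type were read here in 2 revertants of the sap1-1 mutant. The probes were all non-control probes of chromosome III that start below position 50000 or above position 2403700 of the array design, 276 of 41551, with 137 at the left end and 139 at the right. These limits are positions only and hold no threshold on a measured value, but they were chosen with earlier results of these data known. One probe at each end carried an outlier flag (starts 37200 and 2438400), so 274 were analysed. All 276 were well above background in both channels on both arrays.

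The samples were 2 DNA preparations labelled sap1-1 revertant (genotype sap1-1, strain 972h), each hybridised in Cy5 against wild-type DNA of strain 972h in Cy3. All DNA had been cut with AluI and RsaI before labelling. The sap1-1 strain before reversion was not analysed here, it is not stated in the labels whether the revertants arose separately or whether both arrays carried the same wild-type DNA, and the dyes were never exchanged. The DNA came from whole cultures, so a gain in every cell and a larger gain in some cells cannot be told apart. Spread between the arrays may be technical, and dye and copy number cannot be told apart at a single probe. Values below are log2(revertant / wild type), centred on the median of each array, so 0 stands for the typical probe of the genome and 1 for a doubled ratio. With 2 arrays an exact sign permutation test cannot give a p below 0.5, so a stretch of probes is described by its value on each array, and the only p-values come from limma fits over all probes or all 10 kb windows.

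Ribosomal DNA encodes the 18S, 5.8S and 28S RNAs of the ribosome, and its repeats can be gained or lost by recombination between copies. Spacers between the repeats hold replication fork barriers, at which forks that would run against transcription are stopped. The essential protein Sap1 binds DNA at one of these barriers, and the transcription terminator Reb1 acts at others.

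In the RefSeq assembly ASM294v3, chromosome III (2452883 bp) starts with rDNA up to position 24578 and ends with rDNA from position 2439547. One unit is 10870 bp long, so the assembly holds 2.26 units on the left and 1.23 on the right, and each probe reads the sum of all copies of its sequence in the cell, at either end. Beyond the rDNA lies a flank that both ends share in inverted order, at chrIII:24579-36088 on the left and chrIII:2427752-2439546 on the right, with an identity of 98.8% over most of it and 92.7% over its inner part. Probes there can bind DNA of both ends as well. Within the analysed stretch 157 of 276 probe names (56.9%) end in f, against 1072 of 41251 (2.60%) on all chromosomes. The sources used here do not give the meaning of this letter, but on the left it fell on the sequence shared by both ends for 137 of 137 probes once positions were moved by 100 to 140 bp, and for 133 of 137 unmoved. On the right the best match was 131 of 139, with positions moved by -1120 to -960 bp. The sources used here do not name the genome build of the array design, so genes of the left end are given values and genes of the right end are only named. For the same reason the rDNA of the right end was taken to start, on the array, 660 bp beyond its place in the assembly, the smallest shift within 1 probe of the best match, which makes 2440500 its first probe. This was set with the values known. Any shift from 660 to 1420 bp leaves the same unsaturated rDNA probes, and the values without a shift are given beside the results they change.

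The edge of the array is sharp in the assembly, and the sequences around it are shown because the difference between the revertants described below changes across this edge. Capitals mark the 60 bases on the rDNA side. The left edge is chrIII:24519-24638 (plus strand), the same place of the preceding unit is chrIII:13649-13768 (plus strand), and the right edge is chrIII:2439487-2439606 (minus strand), all of ASM294v3 from RefSeq.
Left edge: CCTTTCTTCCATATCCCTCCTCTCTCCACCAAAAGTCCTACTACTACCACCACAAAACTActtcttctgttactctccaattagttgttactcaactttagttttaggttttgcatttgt
Same place inside the array: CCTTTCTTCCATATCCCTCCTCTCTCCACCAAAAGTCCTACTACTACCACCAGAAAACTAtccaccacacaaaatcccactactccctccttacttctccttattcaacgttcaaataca
Right edge: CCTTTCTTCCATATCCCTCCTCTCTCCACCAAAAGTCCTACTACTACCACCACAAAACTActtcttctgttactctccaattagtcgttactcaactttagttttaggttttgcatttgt
On the rDNA side the preceding unit matched the left edge at 59 of 60 bases, and beyond the edge at 15 of 60. The right edge matched the left one at 60 of 60 bases inside and 59 of 60 outside, so that both arrays end at the same place of the unit.

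The spacer between repeat units, outside the transcribed spacers, is shown for its fork barrier motif. The letters AAGGGTAAT, the core of the sequence that Reb1 binds, were searched on both strands of the assembly and are in capitals below. The stretch is chrIII:5537-5788 (minus strand, ASM294v3).
Fork barrier region: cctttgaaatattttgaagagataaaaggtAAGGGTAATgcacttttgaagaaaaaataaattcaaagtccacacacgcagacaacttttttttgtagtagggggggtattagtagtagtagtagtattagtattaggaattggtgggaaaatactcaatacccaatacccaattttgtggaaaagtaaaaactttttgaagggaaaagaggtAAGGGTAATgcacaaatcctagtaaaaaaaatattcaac
It holds the motif 2 times, is identical in the next unit of the left end, and differs at 2 of 252 bases from its counterpart at chrIII:2447476-2447727. Of 158 matches in the genome, 30 lie on chromosome III, 4 of them in the left rDNA and 2 in the right. Among 41969 windows of 300 bases, 0.357% hold it. A match of these letters is a description of the sequence and no measurement of binding.

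The rDNA repeats had the highest ratios of both ends and differed between the revertants, while the shared flanks and the inner DNA had medians of about 0.4 to 0.6 on both arrays. Over the 27 rDNA probes that were unsaturated in both channels on both arrays, the median was 1.50 in revertant 1 and 0.93 in revertant 2 (mean 1.21 ± 0.40, SD, n = 2). That is 2.82 and 1.90 times the wild-type signal, relative to the typical probe. Left out are spots saturated only in the wild-type channel, with medians of at most 0.73 (11 on array 1) and 0.98 (19 on array 2). Also left out are 3 spots of array 1 saturated only in the revertant channel, with ratios of at least 1.90 to 2.20. This level depended on the scaling, and with loess within each array the medians were 0.80 and 0.39. The left repeats stood at 1.41 and 0.92 (20 probes) and the right ones at 1.61 and 0.96 (7 probes). The shared flanks had medians of 0.48 and 0.38 over 68 probes. Inner DNA had 0.62 and 0.50 on the left (46 probes) and 0.45 and 0.40 on the right (83 probes).

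**Figure D1:**
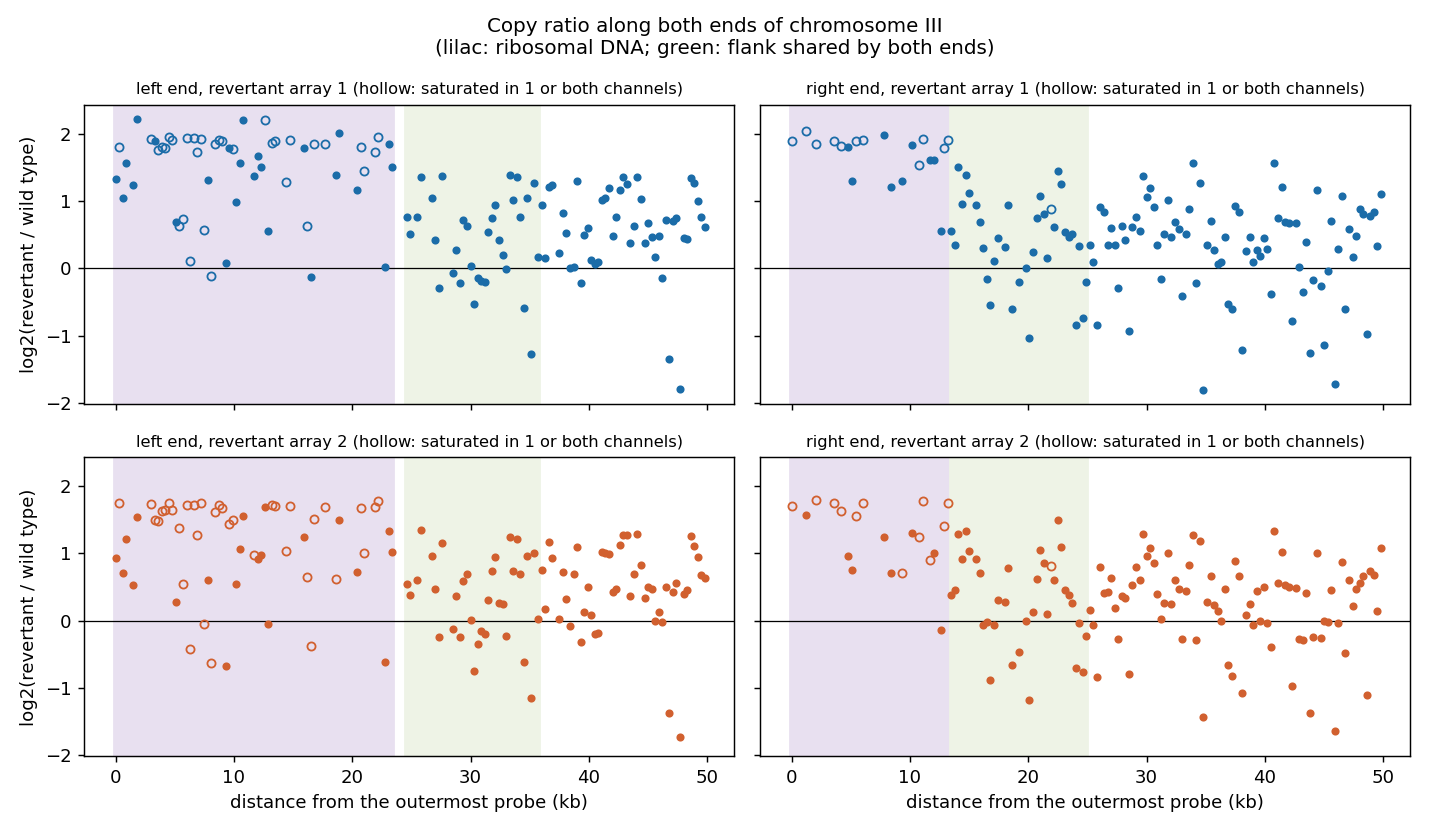
Log2(revertant / wild type) of each probe against the distance from the outermost probe in kb, for the left and right end on each array, with saturated spots hollow. The rDNA lies in the outer 23.4 kb on the left and the outer 13.2 kb on the right, and its unsaturated median was 1.50 on array 1 and 0.93 on array 2.

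**Figure D2:**
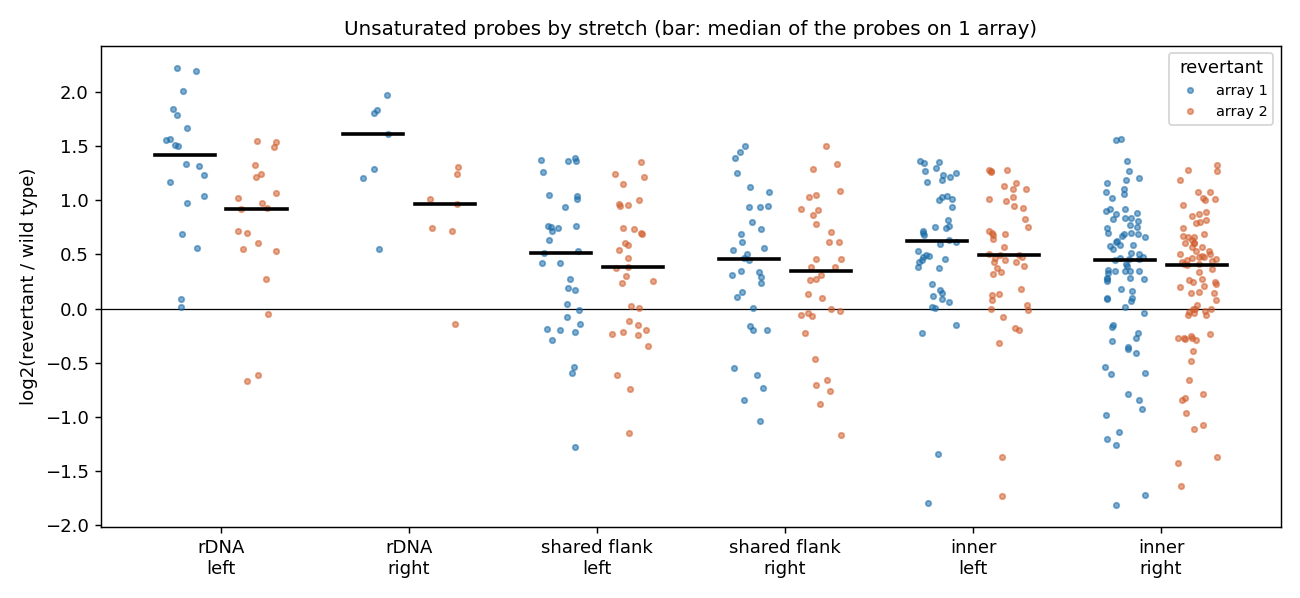
Log2(revertant / wild type) of the unsaturated probes of 6 stretches, with points for probes and bars for the median on 1 array. The bars of the rDNA (1.41 and 0.92 on the left, 1.61 and 0.96 on the right) stand above those of the flanks and inner stretches on both arrays.

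Among the unsaturated rDNA probes the lowest, median and highest values were 0.02, 1.41 and 2.22 on the left in revertant 1, and -0.67, 0.92 and 1.55 in revertant 2. On the right they were 0.55, 1.61 and 1.97 in revertant 1, and -0.14, 0.96 and 1.31 in revertant 2. The probes spread widely within each array, and the ranges of the arrays overlapped. None of the 27 probes unsaturated on both arrays was below 0 in revertant 1, and 4 of 27 were in revertant 2. The probe starting at 16500, unsaturated on array 1 only, read -0.13 there. The probe starting at 8100, saturated in the wild-type channel, read at most -0.12 on array 1. Of the 27, the probe starting at 9300 in the 28S gene was the lowest in revertant 2, at 0.08 and -0.67. The lowest of the 27 in revertant 1 started at 22800 in the 18S gene, at 0.02 and -0.61. That starting at 12900 in the spacer read 0.56 and -0.05. The highest were at 1800 in the spacer, with 2.22 and 1.54, and at 10800 in the 18S gene, with 2.20 and 1.55. The same probes were thus low or high on both arrays, with a correlation between the arrays of 0.97 across the 27 probes, which share sequence with one another and are not independent.

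The difference between the revertants had 1 sign over the unsaturated probes of the repeats. All 27 unsaturated rDNA probes were lower in revertant 2, by a median log2 difference of -0.54 (range -0.84 to -0.34), which is a ratio 1.46 times lower. With the right edge not moved, 3 more probes (2439600, 2439900 and 2440200) counted as rDNA, 29 of 30 were lower in revertant 2, and the median was -0.53 (range -0.84 to 0.11). The left probes had a median difference of -0.52 and the right ones of -0.60. By gene, among the 20 left probes, the median difference was -0.50 over 8 probes of the 18S genes, -0.61 over 4 of the 28S genes and -0.55 over 7 of the spacer between units. In the shared flanks the median difference was -0.07 (range -0.38 to 0.14), and in the inner DNA of both ends it was -0.08 (range -0.43 to 1.13). The rDNA differences and those of the flanks overlapped only slightly, the least negative rDNA value being -0.34 and the most negative flank value -0.38.

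The size of the difference changed near the edge of the repeats. On the left the last unsaturated rDNA probe, at 23400, differed by -0.49 (1.51 and 1.02), and the first flank probe, at 24600, by -0.22 (0.77 and 0.54). On the right the first unsaturated rDNA probe, at 2441100, differed by -0.69 (0.55 and -0.14), and the last flank probe, at 2440200, by -0.17 (0.56 and 0.39). With the right edge not moved, the probe at 2440200 lies inside the rDNA, so that the place of the change on the right is known only as well as the shift. The level itself did not drop as clearly there, since 8 flank probes between 2437800 and 2440200 had medians of 0.94 and 0.92, and 5 between 24600 and 26700 had 0.77 and 0.60. Beyond these the flank fell to 0.35 and 0.28 on the left (28 probes) and 0.31 and 0.13 on the right (27 probes).

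**Figure D3:**
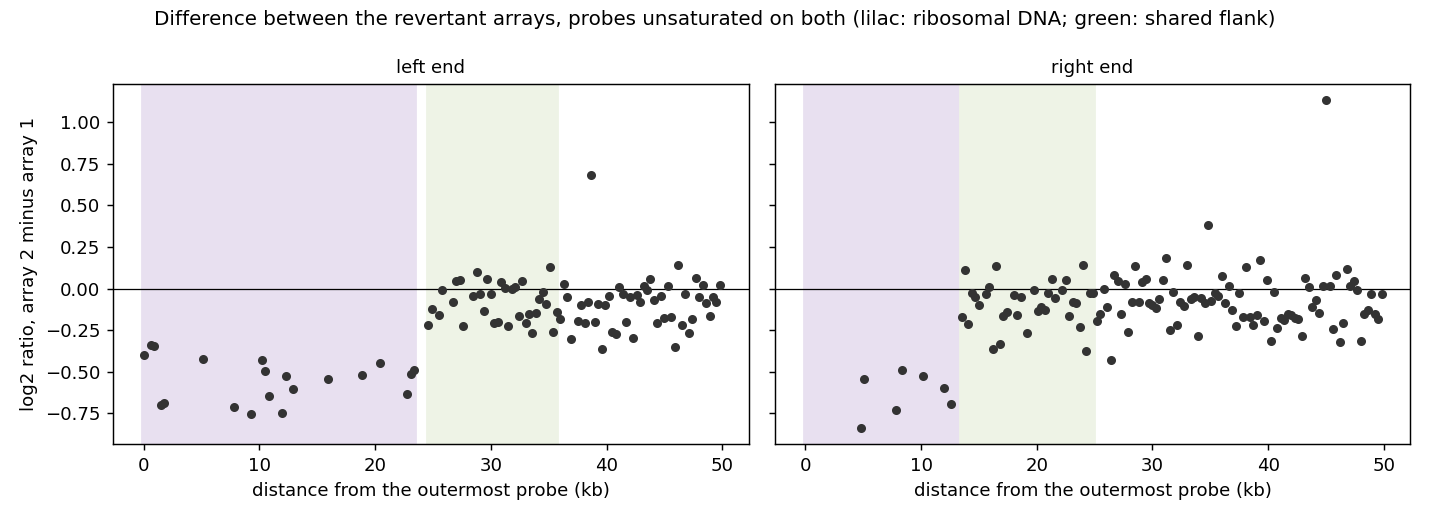
Log2 ratio of array 2 minus that of array 1 against the distance from the outermost probe in kb, for probes unsaturated on both arrays. The rDNA points lie between -0.84 and -0.34 and the flank points between -0.38 and 0.14.

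In the chromosome interior, at least 100 kb from every end, probes of the same wild-type brightness had medians of 0.08 and 0.17 (4918 unsaturated probes with signals of 25422 to 62481 in the wild-type channel of array 1). Their median difference was 0.09, opposite in sign to that of the rDNA, and 2 of the 4918 (0.0407%) had a difference as negative as the least negative rDNA probe. Split by channel and set against the interior, the revertant signal of the 27 rDNA probes was lower on array 2 by a median of 0.44 on the log2 scale (a change of -0.44, lower in 27 of 27), and the wild-type signal was higher by 0.12 (higher in 27 of 27). In the shared flanks these changes were -0.08 and 0.01. Most of the rDNA difference thus lay in the revertant channel, with a smaller part in the wild-type channel.

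Saturation limited what the arrays could show of the rDNA. Of its 77 probes, 50 (64.9%) were saturated in at least 1 channel on at least 1 array, against 435 of 41551 over the array (1.05%). A spot saturated in both channels carries no information on the ratio, because both scanner signals stop at 65528 and the dye factors then fix the ratio near 1.83 on array 1 and 1.67 on array 2. The 29 rDNA spots saturated in both channels had medians of 1.88 and 1.71, the same as the saturated spots elsewhere on the arrays (1.88 over 31 and 1.71 over 43). Medians that include these spots, 1.76 and 1.37 on the left and 1.82 and 1.36 on the right, partly reflect that ceiling. A spot saturated only in the wild-type channel gives an upper bound. There were 11 such rDNA spots on array 1, with a median of at most 0.73, and 19 on array 2, with a median of at most 0.98. The 3 spots of array 1 that were saturated only in the revertant channel had ratios of at least 1.90 to 2.20. Array 2 had none of that kind. A pair of rDNA probes went the other way, at 5400 and 16200, both in the spacer between units and both saturated in the wild-type channel on both arrays. Their ratios were at most 0.63 and at most 1.37 at 5400, and at most 0.63 and at most 0.65 at 16200. Their revertant signals, which were not saturated, were 28134 and 53565 scanner units at 5400, and 26479 and 31764 at 16200, higher on array 2. Over all 45 rDNA probes with an unsaturated revertant channel, 43 had a lower processed revertant signal on array 2 when set against the interior. In scanner units the probe at 5700 was also higher on array 2 (30828 and 32539).

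**Figure D4:**
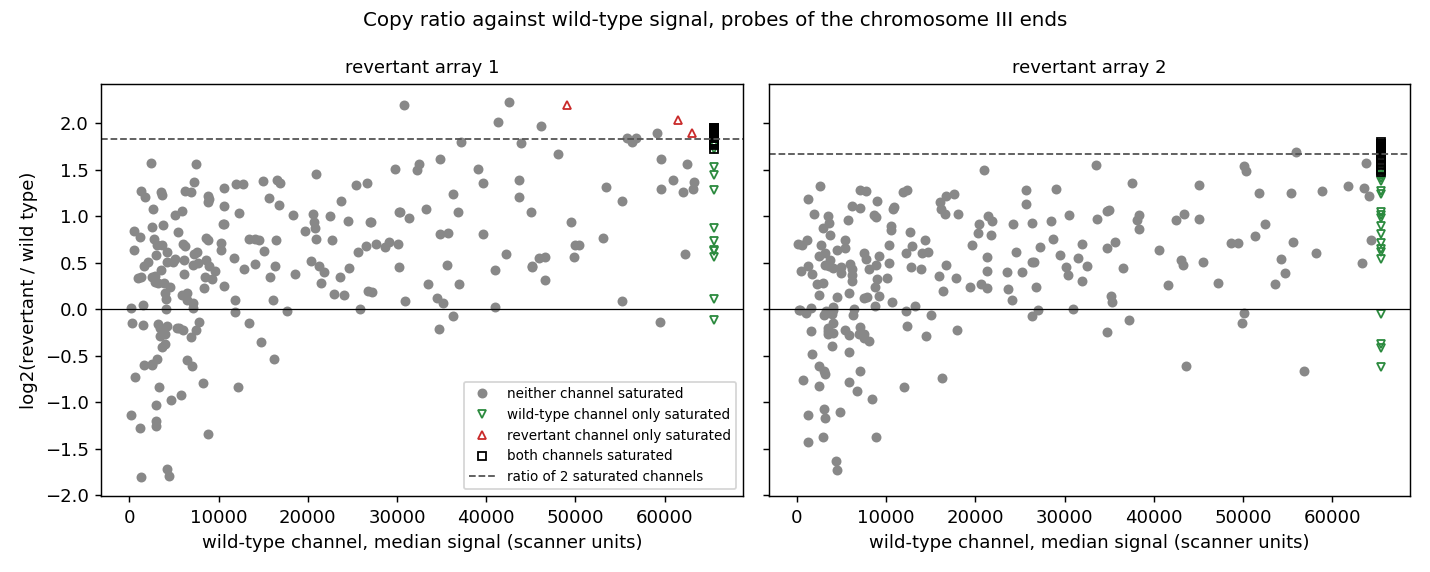
Log2(revertant / wild type) of the end probes against the median signal of the wild-type channel in scanner units, marked by which channel was saturated. Spots saturated in both channels gather at the dashed line of 1.83 on array 1 and 1.67 on array 2.

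The count of probes reaching at least 0.5 on both arrays was 49 of 57 in the left rDNA and 19 of 20 in the right, and 148 of 274 over both ends. Over the whole array 6028 of 41538 probes (14.5%) did so. These counts include 28 rDNA probes saturated in both channels on both arrays, which pass whatever the copy number. Among unsaturated probes 22 of 27 in the rDNA and 101 of 223 over both ends reached 0.5. The flanks had 15 of 33 on the left and 14 of 35 on the right, and the inner DNA 21 of 46 and 30 of 83. In the limma fit over all probes 205 of the 274 were higher and 41 lower at an adjusted p of 0.05, where 40% of all probes were called higher. The share of all probes called lower is not given here. The share called higher is large, so a single call says little.

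In 10 kb windows all 9 windows of the ends that held at least 5 probes were higher by limma, with adjusted p of at most 0.0046, against 248 of 1254 windows (19.8%) over the genome. Another 332 windows of the genome (26.5%) were called lower. The highest were chrIII:1-10000 with 1.63 ± 0.21 (SD, n = 2), chrIII:2440001-2450000 with 1.51 ± 0.38 and chrIII:10001-20000 with 1.36 ± 0.42, all in the rDNA and all holding saturated spots. Without saturated spots their values on the 2 arrays were 1.27 and 0.65, 1.45 and 0.86, and 1.61 and 1.02. The lowest counted windows were chrIII:2410001-2420000 with 0.26 ± 0.03, chrIII:30001-40000 with 0.40 ± 0.13 and chrIII:2420001-2430000 with 0.45 ± 0.07. Windows of the rDNA hold copies of the same unit, and windows of the flanks share sequence between the ends. The 9 windows are therefore not independent of one another. All windows are in the positions of the array design.

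The limits of 27 kb on the left and 16 kb on the right were taken from earlier results of these data. The split is thus not independent of the values. By these limits the outer probes had medians of 1.69 and 1.30 (62 probes) and 1.61 and 1.24 (28 probes). The rest had 0.53 and 0.47 (74 probes) and 0.41 and 0.29 (110 probes). The outer stretches thus include 5 and 8 flank probes beside the rDNA, and 37 and 13 saturated probes. Without saturated probes the outer medians were 1.32 and 0.91 on the left and 1.21 and 0.92 on the right.

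Of the rRNA genes on the left, the 18S genes SPRRNA.42, SPRRNA.43 and SPRRNA.44 had 3, 3 and 2 unsaturated probes of 4 each. The 28S genes SPRRNA.47 (chrIII:6057-9541) and SPRRNA.48 (chrIII:16927-20411) had 2 of 11 and 2 of 4. No mean per gene is given, since saturated spots hold only bounds or the ceiling. Both 5.8S genes had fewer than 3 probes. Among unsaturated probes the medians were 1.56 and 1.00 in the 18S genes, 1.24 and 0.66 in the 28S genes and 1.50 and 0.97 in the spacer between units. The ranges of their probes overlapped. Grouped by the repeat in which their position lies, unsaturated probes had medians of 1.32 and 0.70 in the outermost (11 probes). The next had 1.58 and 0.94 (6 probes), and the innermost, which is partial, 1.51 and 1.02 (3 probes). Each probe reads the sum of all copies, so these are not values of separate copies. The groups differ in which probes were unsaturated.

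Genes of the left end outside the rDNA mostly had lower values than the unsaturated rDNA. In the shared flank the uncharacterized proteins SPCP20C8.01C (chrIII:28298-29423) and SPCP20C8.02C (chrIII:30561-31520) had means of 0.16 ± 0.02 and -0.05 ± 0.07 over 4 probes each, and the pseudogene SPCP20C8.03 had 0.47 ± 0.07 over 3. Further in, SPCC1884.01 had 0.33 ± 0.01 over 5 probes. The noncoding RNA gene meu3 (chrIII:41985-42728) was the highest of the left-end genes outside the rDNA that had at least 3 probes, with 0.74 ± 0.09 over 3 probes. Part of it lies in chrIII:42221-43064, which is 98.9% identical to chrIII:2418712-2419554 on the right. A stretch of SPCC1884.01, chrIII:38367-38704, is also shared with the right end, at 93.2% identity. Probes in these stretches can bind DNA of both ends, so they are not values of the left end alone. The nickel transporter gene nic1 (chrIII:43543-46985) had 0.35 ± 0.07 over 11 probes, from -1.34 to 1.35 in revertant 1. SPCC757.02C, which overlaps nic1 and shares probes with it, had 0.09 ± 0.08. The glyoxalase gene hsp3101 (chrIII:47325-48501) had -0.06 ± 0.03 over 4 probes, 1 of which was at -1.79. The probes within nic1 differed from each other by more than its means on the 2 arrays did.

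On the right the assembly places nsa2 (a ribosome biogenesis factor), rpp103 (a ribosomal P1 protein), dhm1, puf6 (an RNA-binding protein of the Puf family), ade5 (an enzyme of purine synthesis) and meu19 in the inner DNA. The spermidine family transporter gene SPCC569.05C spans the inner edge of the shared flank, and SPCC569.03, SPCC569.02C and SPCC569.01C lie within it. The rRNA genes SPRRNA.46, SPRRNA.52, SPRRNA.49 and SPRRNA.45 follow. The inner right DNA had 10 of 83 probes at -0.5 or below on both arrays, and its lowest probes were at 2418900 (-1.81 and -1.42) and 2407800 (-1.72 and -1.64). The share of all probes at that level is not given here. Unsaturated interior probes had a median of -0.03 on each array and SDs over probes of 0.65 and 0.64. A value of -0.5 lies within that spread, and without that share the count is not read as a trait of this stretch. A pair of inner probes departed from the small difference between the arrays, at 38700 (0.02 and 0.70) and at 2408700 (-1.14 and -0.01). Both were dim, with wild-type signals of 133 and 180 on array 1.

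The ends of the other chromosomes also had ratios above 0. Within 50 kb of the left and right ends, unsaturated probes of chromosome I had medians of 0.54 and 0.42, and 0.43 and 0.47. Those of chromosome II had 0.39 and 0.33, and 0.43 and 0.39. At 36 to 50 kb from these ends the medians were 0.36 and 0.32, 0.34 and 0.35, 0.11 and 0.12, and 0.33 and 0.29. The inner left DNA of chromosome III, at the same distance in array positions, was above all 4 with 0.62 and 0.50. The inner right DNA, which also holds probes nearer the end, had 0.45 and 0.40. The number of rDNA repeats in the cells, and so the distance to the real end of chromosome III, was not measured. The median differences between the arrays over 50 kb at the 4 ends of chromosomes I and II lay from -0.07 to 0.00. The unsaturated rDNA medians of 1.50 and 0.93 were above all of them. None of these comparisons has a test with 2 arrays. At the position limits the last 5 probes inside the left limit had medians of 1.00 and 0.95 and the first 5 outside 0.55 and 0.67. On the right the first 5 inside had 0.78 and 0.69 and the last 5 outside -0.01 and -0.27.

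Brightness, base composition and restriction sites moved with the stretches. The median wild-type signal of array 1 was 65528 in the rDNA, at saturation, 14302 in the shared flanks and 8925 in the inner DNA. In the assembly the rDNA had 38.0% G and C on the left and 37.6% on the right, the flanks 32.2% and 32.4%, and all 3 chromosomes 36.1%. AluI and RsaI sites together (AGCT and GTAC) numbered 4.19 and 4.27 per kb in the rDNA, 7.12 and 7.29 in the flanks and 6.42 over all chromosomes. Across 976 probes of chromosome III between 100 and 400 kb, on the same arrays, the G and C share of the sequence at the probe correlated with the ratio at -0.12 and -0.14. The part of the restriction sites was not tested, and the effect of scaling by brightness follows.

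How the arrays were scaled changed the level of the rDNA but not the direction of the difference. With an intensity-dependent loess fit within each array, the unsaturated rDNA medians were 0.80 and 0.39, against 0.44 and 0.36 in the shared flanks, so in revertant 2 the rDNA then stood only 0.03 above the flanks. With the median of equally bright probes subtracted, the rDNA had 1.13 and 0.53 and exceeded the flanks by 0.62 and 0.16. As reported it exceeded them by 1.01 and 0.55. All 27 probes were lower in revertant 2 under each of the 5 scalings.

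**Figure D5:**
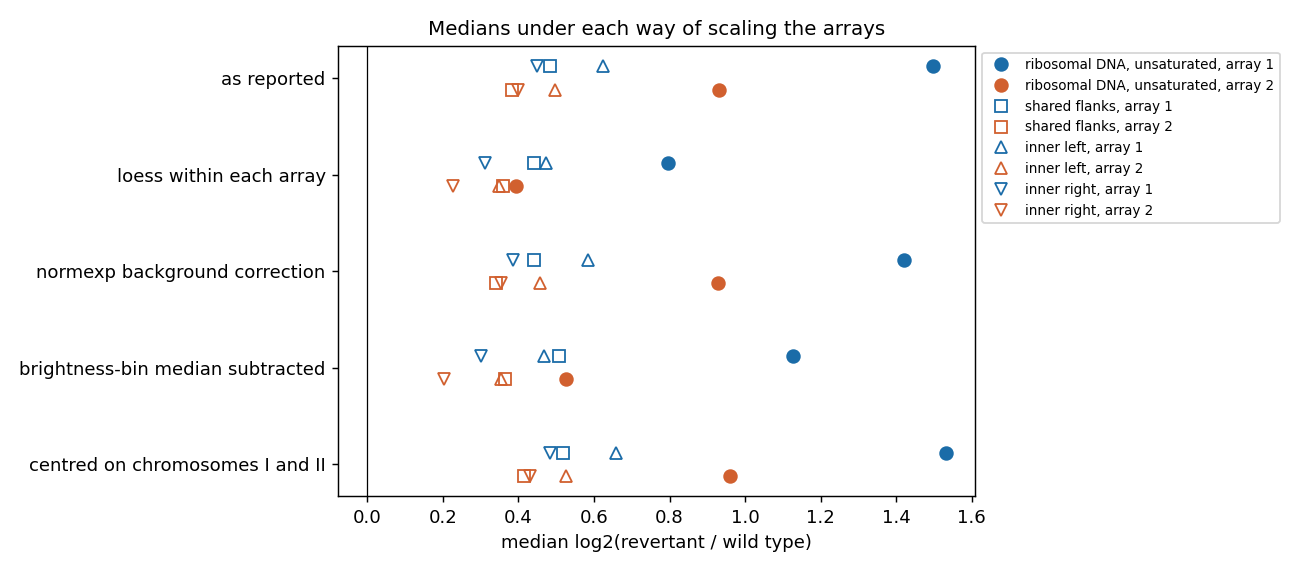
Median log2(revertant / wild type) of the unsaturated rDNA, the shared flanks and the inner DNA on each array, as reported and under 4 other scalings. The rDNA of array 1 is the highest value in each row (0.80 to 1.53), and under loess the rDNA of array 2 (0.39) lies next to the flanks (0.36).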

How the data were processed

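Genomic DNA of 2 sap1-1 revertants (Cy5) was compared with wild-type DNA (Cy3) on 2 Agilent 2-colour arrays. Per the file headers, the deposited signals are intensities from Agilent Feature Extraction 10.10.1.1, background-subtracted and scaled by the authors with 1 linear dye factor per channel. The deposited log10 ratios equalled the ratio of these signals and were used only as a check, and the authors' deposited series table of log2 ratios was used as an alternative. The sources used here do not give any other step.

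Each spot's log2 ratio (Cy5 to Cy3, processed signals) was centred on each array's median over 41551 non-control probes (0.09 and 0.08 before centring). Flagged outliers (10 and 3) were left out. Saturated spots (388 and 395 green, 86 and 84 red) were kept but reported apart. All probes and all 10 kb windows (median of at least 5 probes) were fitted with limma 3.58.1 in R 4.3.3 (intercept, eBayes, Benjamini-Hochberg, 0.05), after a test on simulated data. The interior leaves out 400 to 650 kb of chromosome III. Gene means need 3 probes, by unmoved probe start, and every such gene is named, without a mean for rRNA genes, whose spots are mostly saturated. Repeats were found with BLAST 2.17.0 in ASM294v3. The number of arrays limits the precision. Loess, normexp with an offset of 50 on median signals (no mean signals were used), brightness bins, other centring, edges and window sizes were tried. The members and lists were chosen with earlier results of these data known.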

Additional observations from a re-analysis of the deposited data

How the results depend on the processing

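No result reversed among 98 alternatives over 11 results, and 84 stayed within the spread of the arrays or, for counts, within 1.5 times. The spread is the SD of the 2 array medians, so a median with 1 array left out always lies within it. Those settings therefore could not have counted as moved. For the right outer difference between the revertants the spread (0.26) was larger than the value itself (-0.21), so an unchanged label there says little. Loess within each array lowered the medians to 0.64 (left outer, 1.50 as reported), 0.72 (right outer, 1.43), 0.41 (left of 27 kb inwards, 0.50) and 0.60 (unsaturated rDNA, 1.21). Subtracting the median of equally bright probes gave 1.09, 1.03 and 0.41 for the left outer, right outer and left inner medians. Leaving out saturated probes gave 1.12 and 1.06 for the outer medians. A mean over probes gave 0.44 for the left and 0.25 for the right inner stretch (0.35 as a median). Moving the edge 3 kb inwards gave 1.14 for the right outer median. With a threshold of 1, 80 probes passed on both arrays (148 at 0.5). All 18 counted windows of 5 kb were higher (9 of 10 kb). On the right these also started at 2410001 or beyond, so the probes from 2403900 to 2409900 were again left out. The unsaturated rDNA median and its difference, and their alternatives, were added after seeing the data. With 1 array left out the medians ranged from 0.47 to 0.53 for the left inner probes, 1.30 to 1.69 for the left outer probes, 0.93 to 1.50 for the unsaturated rDNA, 0.29 to 0.41 for the right inner probes, 1.24 to 1.61 for the right outer probes, and the count at 0.5 from 150 to 169. The limma counts could not be had with 1 array, which leaves no residual degrees of freedom. Saturation limits the rDNA, where only 27 of 77 probes gave a measured ratio on both arrays. Each log ratio already pairs a revertant with the wild-type channel of its own array. No further pairing was possible because the revertants form 1 group.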
